A study of Bos taurus with 8 samples.

Results

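The regions described here are the 3 kb windows that lie inside annotated genes of cattle chromosomes 1 to 29 and hold no coding exon. They were chosen by annotation alone. Genes with at least 5 windows and at least 1 window with coding sequence were taken, the first and the last window of each gene were dropped, and the windows with an empty coding field were kept. This left 199097 intron windows of 902984 windows in the whole table (22.0%, or 23.8% of the windows of chromosomes 1 to 29). They lay in 10292 of the 11579 genes that met the rule. In the other 1287 genes every internal window held coding sequence. A window without coding sequence can still hold an untranslated exon, and such exons could not be separated from introns here.

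Introns are transcribed with the gene and then removed from the transcript. In mammalian cells the bodies of genes, introns included, commonly carry methylated CpG sites, whereas CpG-rich promoters near the start commonly do not. MIRA-Seq captures methylated double-stranded DNA on methyl-binding domain proteins and sequences it, so a window's read count depends on how many of its CpG sites are methylated and also on how many CpG sites and copies it has.

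The libraries were made from genomic DNA of dermal fibroblasts, the matrix-producing cells of the skin, cultured from shoulder skin of 4 Holstein heifers, a dairy breed, and 4 Angus heifers, a beef breed. Each culture came from 1 animal, was used at passage 5 and received no treatment. According to the study, the females were sampled at the same age, in the second year of life, and calves of the breeds had been reared differently, so breed and early rearing cannot be told apart. Genomic DNA gives no expression level, so the fibroblast label was not checked against marker genes.

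Levels are given as CPM, the read count of a window scaled by the total over all windows of its library. Where the values of single libraries are listed, they stand in the order of the replicate numbers 1 to 4. All but 1 of the intron windows were 3 kb long, so levels can be compared between genes. The 8 libraries held 18691111 to 35525554 reads in windows, and 11.3% to 17.0% of these fell in intron windows. An intron window held a median of 4 to 13 reads, and 3 reads corresponded to 0.0844 to 0.161 CPM, which covers counting error only. Holstein 1 and Angus 3 stood apart: their 1% of windows with the most reads held 69.0% and 72.4% of all reads, against 46.8% to 57.4% in the other 6 libraries. Their part in the results below was examined by leaving each out.

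Most intron windows carried a low but measurable level. Averaged over the 8 libraries, the median window had 0.315 CPM and the middle range, from the 25th to the 75th percentile, ran from 0.168 to 0.591 CPM. Reads were found in all 8 libraries in 156921 windows (78.8%) and in no library in 257. A level of 1 CPM or more was reached by 11.98% of intron windows, against 29.5% of the 76930 internal coding windows of the same set of genes and 8.17% of the 502223 windows outside named genes, called intergenic here. A few windows weighed heavily on the mean, which was 0.752 CPM. The 1000 intron windows with the highest level, all of 5.77 CPM or more, held 31.9% of the reads of all intron windows and lay in 341 genes. Medians are therefore given beside means.

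The ranking of windows was shared between animals. Spearman's rho between any pair of libraries over the 199097 windows ran from 0.781 to 0.885, as a description, since all libraries share the same sequence. Neighbouring intron windows of a gene resembled each other, with a rho of 0.509 over 164443 adjacent pairs and 0.423 over 124964 pairs of windows 10 places apart. The level of a gene's introns also followed that of its coding windows. Over 4165 genes with at least 5 windows of each kind, the rho between the intron median and the coding median was 0.828. Base composition and copy number were not examined and so were not separated from methylation.

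Intron windows carried less signal than coding windows of the same genes in every library. In 9984 genes with both kinds, the mean over genes was 0.778 ± 0.140 CPM in introns and 1.12 ± 0.19 CPM in coding windows (SD, n = 8). The log2 ratio of intron to coding was -0.52, -0.45, -0.54 and -0.54 in the 4 Holstein libraries and -0.39, -0.54, -0.62 and -0.62 in the 4 Angus libraries. The ratio was thus below 0 in all 8 libraries, with a mean of -0.53 ± 0.08 (exact sign-flip permutation test over libraries, two-sided, p = 0.00781, the smallest this test can give; adjusted p = 0.00977 over 5 contrasts). Not every gene followed it: the intron mean lay below the coding mean in 6515 of the 9984 genes (65.3%). The gap held with medians over genes, at -0.44 ± 0.06. The CpG content of the windows was not examined, here or in the contrasts below, so it was not separated from methylation even within a gene.

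**Figure D1:**
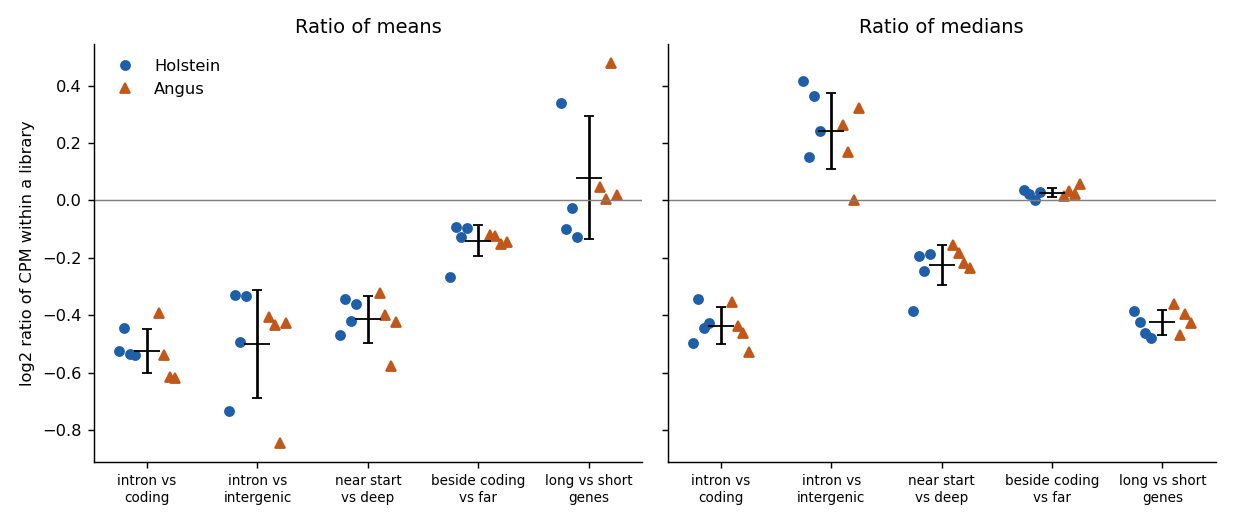
Log2 ratio of CPM between kinds of intron window within each library, from means on the left and from medians on the right (blue circles Holstein, orange triangles Angus, bar and whiskers mean ± SD over 8 libraries). Introns lie below coding windows and windows near the gene start lie below deep ones on both sides, whereas the comparisons with intergenic windows, of beside with far and of long with short genes change sign between the panels.

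Whether introns lay above or below intergenic windows depended on how the average was taken. The mean over windows was 0.752 ± 0.096 CPM in introns and 1.06 ± 0.02 CPM between genes, with a log2 ratio below 0 in all 8 libraries (mean -0.50 ± 0.19; adjusted p = 0.00977, exact sign-flip permutation test). The medians went the other way: 0.314 ± 0.096 CPM in introns and 0.266 ± 0.084 CPM between genes, with introns higher in 7 of 8 libraries and level in Angus 3 (mean log2 ratio 0.24 ± 0.13; adjusted p = 0.0156, exact sign-flip permutation test). Intergenic windows of 10 CPM or more numbered 2177 (0.433%), against 473 intron windows (0.238%). The highest 1% of windows held 62.9% of the summed level between genes and 35.6% in introns. Without the 0.1% of windows with the highest level on chromosomes 1 to 29, introns had the higher mean in all 8 libraries (log2 ratio 0.10). The typical intron window thus exceeded the typical intergenic window, and the sign of the mean was set by that 0.1% of windows.

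Within the same gene, intron windows near the start had a lower level than deep ones. In 4695 genes with windows both at 1 to 2 places and at 11 or more places from the first window, taken by strand, the means were 0.587 ± 0.121 CPM near the start and 0.776 ± 0.129 CPM deep in the gene (SD, n = 8). The log2 ratio was -0.47, -0.34, -0.42 and -0.36 in the 4 Holstein libraries and -0.32, -0.40, -0.58 and -0.42 in the 4 Angus libraries. All 8 libraries therefore had the lower level near the start (mean -0.41 ± 0.08; adjusted p = 0.00977, exact sign-flip permutation test), as had 2980 of the 4695 genes (63.5%). With medians over genes the ratio was -0.22 ± 0.07.

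Across all genes, in contrast, the median level fell with distance. It was 0.344 ± 0.109 CPM at distance 1 and 0.374 ± 0.112 CPM at distance 2 (mean ± SD over the library medians, n = 8), stayed at 0.374 ± 0.112 CPM at 3 to 5 windows, and then dropped to 0.294 ± 0.093 CPM at 51 to 100 windows and 0.219 ± 0.068 CPM beyond 200. The genes behind these values changed with distance: 7087 genes gave a window at distance 1, 1230 at 51 to 100 and 117 beyond 200. In genes of 100 or more windows alone, the median of the window levels was 0.241 CPM at distance 1, 0.298 CPM at 3 to 5 and 0.281 CPM at 51 to 100. It was 0.220 CPM beyond 200, where 113 genes gave windows, against 500 at 51 to 100. In genes of 200 or more windows the median was 0.230 CPM at 1 to 2 windows, 0.252 CPM at 3 to 10 and 0.224 CPM from 11 on. The means of these classes fell instead, from 1.77 ± 0.36 CPM over 197 windows to 0.569 ± 0.109 and 0.463 ± 0.080 CPM (SD over libraries). Coding windows had a steeper start, with medians of 0.480, 0.593 and 0.593 CPM at distances 1, 2 and 3 to 5, and 0.391 CPM at 51 to 100.

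**Figure D2:**
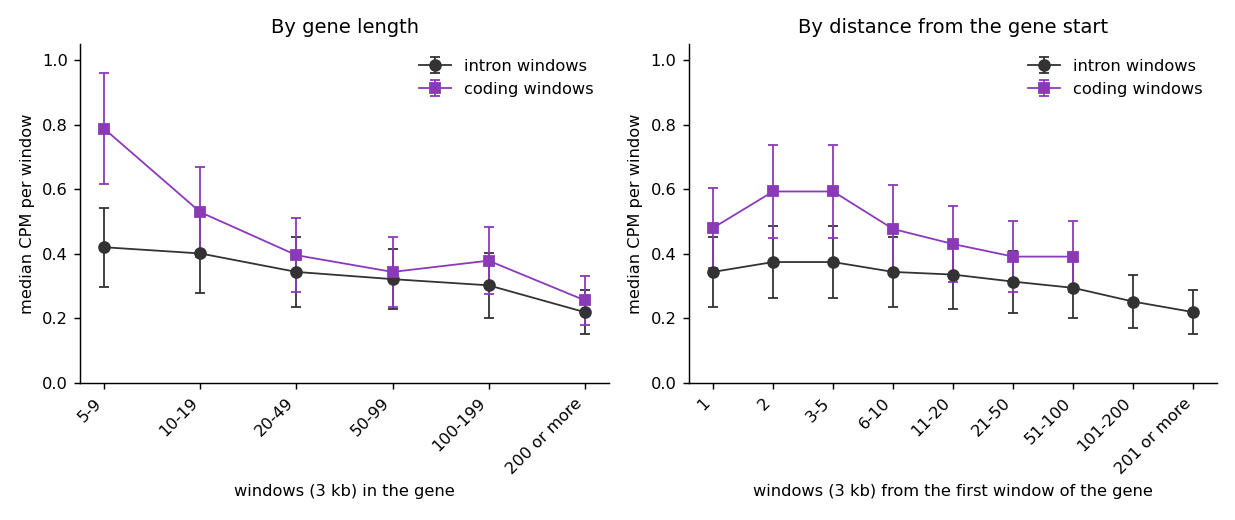
Median CPM per 3 kb window by the number of windows in the gene (left) and by distance from the first window of the gene (right), for intron windows (black circles) and internal coding windows (purple squares, drawn to distance 100); points and whiskers are the mean ± SD of the medians of 8 libraries. Intron medians fall from 0.420 to 0.219 CPM with gene length, coding medians from 0.787 to 0.256 CPM, and the kinds come closest in genes of 50 to 99 windows and of 200 or more.

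The intron level also fell with gene length, again in medians. The library medians averaged 0.420 ± 0.122 CPM in genes of 5 to 9 windows, 0.344 ± 0.109 CPM in genes of 20 to 49 and 0.219 ± 0.068 CPM in genes of 200 or more (SD, n = 8). Coding windows fell from 0.787 ± 0.172 to 0.256 ± 0.076 CPM over the same classes. Taken as 1 value per gene, the 8 libraries had a lower median in genes of 100 or more windows than in genes of 5 to 9 (0.344 ± 0.091 against 0.463 ± 0.124 CPM; log2 ratio -0.42 ± 0.04; adjusted p = 0.0130, exact sign-flip permutation test). The means did not differ beyond the spread between libraries: 0.823 ± 0.060 CPM in long and 0.793 ± 0.159 CPM in short genes, with a log2 ratio of 0.08 ± 0.21 that was above 0 in 5 of 8 libraries (adjusted p = 0.414, exact sign-flip permutation test). Holstein 1 and Angus 3 had the highest ratios, 0.34 and 0.48. Without SLC9A10, RNF122 and TNFAIP8L3, an alternative added after the values were seen, the ratio of means was -0.40 and below 0 in all 8 libraries.

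Nearness to coding sequence gave no stable direction among intron windows. In 3459 genes with windows both beside a coding window and at 5 or more places from any, the means were 0.730 ± 0.134 CPM beside and 0.802 ± 0.129 CPM far, a log2 ratio of -0.14 ± 0.05 that was below 0 in all 8 libraries (adjusted p = 0.00977, exact sign-flip permutation test). With medians the ratio was 0.03 ± 0.02 and above 0 in 7 of 8, and without the 3 genes just named it was 0.00233, above 0 in 5 of 8. Windows beside a coding window were the lower ones in 1686 of the 3459 genes (48.7%), close to an even split. By position relative to the coding part as a whole, the medians were 0.306 CPM in 19824 windows before the first coding window, 0.315 CPM in 175871 between coding windows and 0.339 CPM in 3402 after the last.

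Intron medians ranged about 2-fold between chromosomes. Chromosomes 25, 18 and 19 had the highest intron medians, at 0.529, 0.518 and 0.497 CPM, and coding medians of 1.37, 0.937 and 0.935 CPM. The lowest intron medians were on chromosomes 2, 6 and 1, at 0.237, 0.246 and 0.251 CPM, with coding medians of 0.305, 0.280 and 0.312 CPM. Chromosome 27 had an intron mean of 7.29 CPM but a median of 0.416 CPM. Its mean was 0.654 CPM without RNF122.

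Among 2219 genes with an official symbol and at least 20 intron windows, 3 stood far above the rest. RNF122, which encodes a RING finger protein, spans 28448767 to 28949766 on the minus strand of chromosome 27 (UMD v3.1) as annotated in the files, with 163 intron windows and 2 internal coding windows. Its intron median was 126, 74.1, 95.95 and 90.5 CPM in the 4 Holstein libraries and 84.8, 107, 143 and 97.5 CPM in the 4 Angus libraries. The breeds overlapped widely. The high level formed 1 unbroken block of 160 windows, 480 kb from 28460767 to 28940766, in which every window had at least 26.6 CPM, while the windows just outside it had 3.78 and 1.16 CPM. This gene alone held 7.67% to 23.5% of the reads of all intron windows.

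SLC9A10, a sodium-proton exchanger gene on the minus strand of chromosome 1 (57346901 to 57502900), had an intron median of 149, 121, 99.3 and 98.6 CPM in the 4 Holstein libraries and 110, 106, 70.8 and 144 CPM in the 4 Angus libraries. The median of its 21 coding windows was 0.103 CPM. Again a single block carried the signal, with 16 windows over 48 kb at 109 to 417 CPM, beside windows of 0.256 and 0.337 CPM. The other 13 of its 29 intron windows therefore lay below 10 CPM. In TNFAIP8L3, of the TNFAIP8 family of lipid-binding proteins, on chromosome 10 (59441001 to 59546000), 20 of 33 intron windows formed a block of 60 kb at 28.4 to 106 CPM. Its library medians ran from 24.2 to 51.95 CPM, lowest in Angus 3 and highest in Angus 4. Together these 3 genes held 196 of the 473 intron windows of 10 CPM or more, and 10.3% to 25.8% of intron reads. Whether the blocks lie on repeated sequence was not tested, since no genome of this build was used here.

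The next genes in rank looked different, since they were high throughout. EEFSEC, which encodes the elongation factor for selenocysteine, had 30 intron windows on chromosome 22 (60060467 to 60174466), with a median of 5.85 CPM and a range of 2.63 to 12.6 CPM, and its 6 coding windows had a median of 8.50 CPM. Its library medians were 4.75, 6.15, 5.60 and 7.46 CPM in the 4 Holstein libraries and 4.59, 6.22, 4.01 and 7.89 CPM in the 4 Angus libraries. MAD1L1, a spindle checkpoint gene on chromosome 25 (41535101 to 41778100), had at least 1.01 CPM in all of its 67 intron windows, with a median of 5.35 CPM in introns and 5.54 CPM in coding windows. In both genes the values of Holstein and Angus cultures overlapped.

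**Figure D3:**
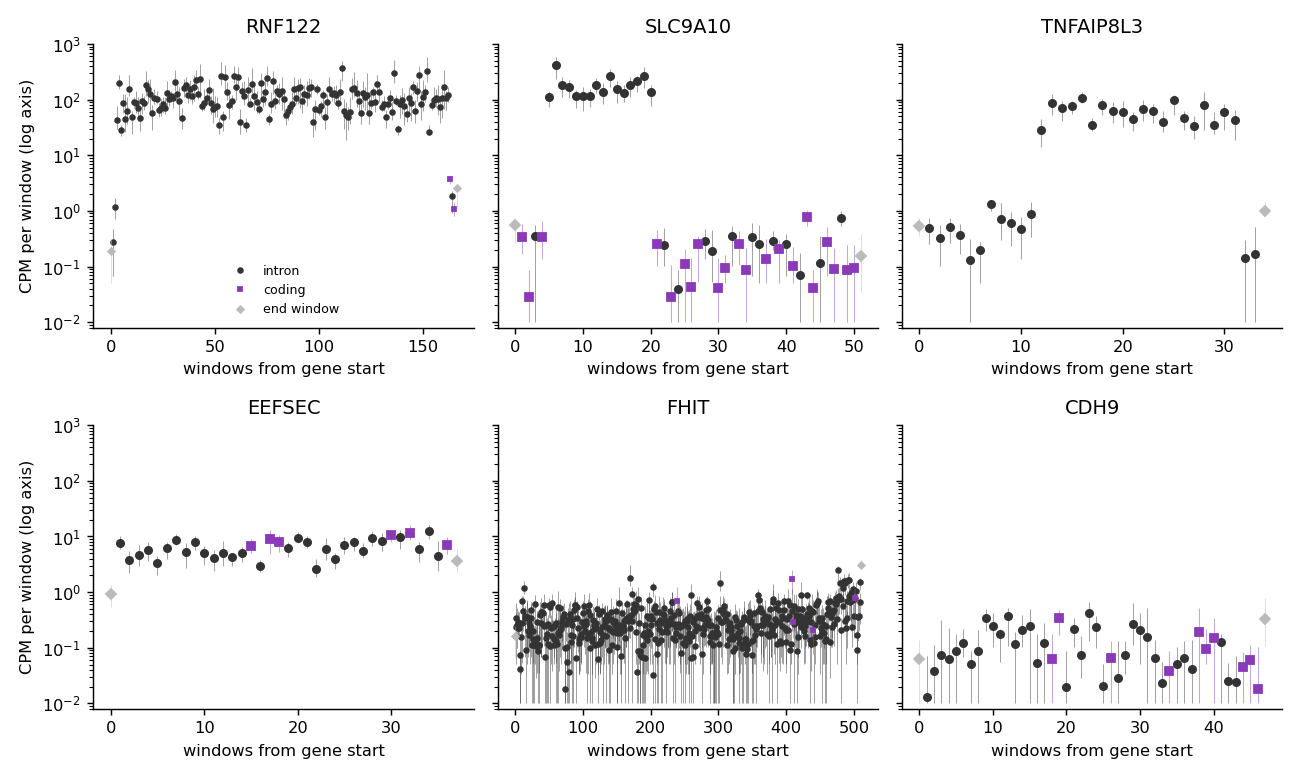
Mean CPM over 8 libraries of each window against its distance in windows from the gene start, on a log axis, with lines from the lowest to the highest library (black intron, purple coding, grey first and last window; values below 0.01 are drawn at 0.01). RNF122, SLC9A10 and TNFAIP8L3 show 1 high block each, of 160, 16 and 20 windows, EEFSEC is high along its whole length, and FHIT and CDH9 have intron medians of 0.271 and 0.0808 CPM, with higher windows toward the end of FHIT.

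At the other end, PVR, a cell adhesion receptor gene on chromosome 18 (52758398 to 52842397), had no read in any library in 11 of its 21 intron windows, whereas its 5 coding windows had a median of 1.01 CPM. Whether the windows without reads are assembly gaps was not tested. CDH9, a cadherin gene on chromosome 20 (46651918 to 46795917), was low without such gaps: its library medians were 0.0759, 0.130, 0.0946 and 0.113 CPM in the 4 Holstein libraries and 0.122, 0.0695, 0.0336 and 0.0535 CPM in the 4 Angus libraries. These are near or below the level of 3 reads in their libraries, so that single libraries cannot be ordered. MMRN1 and KIAA1370 followed, with medians of 0.0900 and 0.0992 CPM over windows.

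The genes with the most intron windows were all on the low side. LRP1B, a large lipoprotein receptor gene on chromosome 2, had 650 intron windows with a median of 0.117 CPM and none above 1.303 CPM. CTNNA3, an alpha-catenin gene on chromosome 28, had 607 with a median of 0.134 CPM. LOC100336924 on chromosome 29, CNTNAP2, a neurexin-family adhesion gene on chromosome 4, and FHIT, a gene of a nucleotide hydrolase on chromosome 22, had 633, 520 and 504 intron windows with medians of 0.233, 0.256 and 0.271 CPM. For comparison, the middle gene with at least 20 intron windows had a median of 0.298 CPM. The 5th and 95th percentiles of that set were 0.145 and 1.33 CPM.

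Of all single intron windows, the 5 with the highest level lay in 4 genes. The window of FSIP2, a sperm sheath protein gene, at chr2:10700034-10703033 had 2628, 1723, 2176 and 1974 CPM in the 4 Holstein libraries and 1605, 1959, 2910 and 2025 CPM in the 4 Angus libraries. A pair of neighbouring windows of ERBB4, a neuregulin receptor gene, from 100160734 to 100166733 on chromosome 2, had means of 910 ± 235 and 620 ± 134 CPM. A window of ASB4, an imprinted gene of the ankyrin repeat family, at chr4:12626205-12629204 had 483 ± 74 CPM and ended a run of 3 windows of at least 160 CPM each, and a window of DCAF6, a ubiquitin ligase adaptor gene, at chr3:692610-695609 had 451 ± 115 CPM (SD, n = 8). None of these separated the breeds. The reads were stacked unevenly: the highest coverage at any base equalled 44.2% of the window's reads in FSIP2 and 77.2% in ASB4 (medians over libraries), against a median of 20.3% in 15682 intron windows of 1 to 2 CPM.

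Genes were also viewed in 6 lists by function, each described by the median of its genes' intron medians. The high and low genes named below are the extremes among list genes with at least 5 intron windows. Over all 10206 genes at a single place this value was 0.371 CPM, and over the 956 genes with at least 50 intron windows it was 0.280 CPM. Long neuronal adhesion and synapse genes, known for their roles at nerve cell contacts, lay lowest, at 0.189 CPM in 39 of 47 genes, and 10 of the 39 were above the value for all genes. Their range was wide. GRIK2 and CNTN6, a glutamate receptor and a contactin gene, had 0.0702 and 0.105 CPM. GRIK2 was not long as annotated here, with 12 windows, 6 of them intron windows. Its library medians ran from 0 to 0.130 CPM. DPP6 and GRID1, a potassium channel partner and a glutamate receptor gene, had 1.03 and 0.724 CPM. Broadly expressed long genes lay at 0.284 CPM in 55 of 58 genes, with 21 above the value for all genes. Among them PRKCA, a protein kinase C gene, and TBCD, a tubulin folding gene, had 2.47 and 2.31 CPM, and HERC1 and TCF12, a ubiquitin ligase and a transcription factor gene, had 0.138 and 0.148 CPM. The lists also differed in length: the neuronal genes had a median of 244 intron windows, the broadly expressed genes 67 and the genes with at least 50 intron windows 86. Windows of genes with 200 or more windows had a median of 0.225 CPM in all. No list was tested against other genes.

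Fibroblast matrix genes lay at 0.373 CPM in 30 of 37 genes, next to the value for all genes. This nearness depended on genes with few windows. Among genes with at least 5 intron windows, the value was 0.436 CPM in 20 matrix genes and 0.333 CPM in all 6270. FBLN2, an elastic fibre component, and COL4A1, a basement membrane collagen, had 3.70 and 2.81 CPM, with coding medians of 5.71 and 3.58 CPM. COL12A1, a collagen of the fibril surface, and FAP, the fibroblast activation protease, had 0.0864 and 0.168 CPM. The COL12A1 value rested on 5 intron windows, with library medians from 0 to 0.244 CPM. Developmental transcription factors lay at 0.371 CPM in 48 of 54 genes, with 0.128 and 0.137 CPM in SOX6 and SOX5 and 1.81 and 1.504 CPM in RUNX3 and PRDM16. Genes of the response to lipopolysaccharide and of the NF-kappa-B pathway lay at 0.387 CPM in 27 of 41 genes. In the 13 of them with at least 5 intron windows the value was 0.337 CPM. IKBKB, the activating kinase, had 3.42 CPM and REL, a transcription factor of the pathway, 0.101 CPM. Imprinted genes lay at 0.339 CPM in 19 of 39 genes. KCNQ1, a potassium channel gene with an imprinted domain, had 2.09 CPM over 117 intron windows, and UBE3A, a ubiquitin ligase, 0.133 CPM over 11. Some list genes with high introns also had high coding windows, as KCNQ1 (coding median 4.78 CPM) and IKBKB (4.66 CPM). Others had high coding windows with much lower introns. ASB4 had 0.339 CPM in 31 intron windows and 8.70 CPM in coding windows, but the coding window beside its high run had 14.8 CPM. ATXN1 had 0.806 and 9.77 CPM, with only 4 intron windows. Both stand outside the extremes named above. The relation was not computed within the lists.

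**Figure D4:**
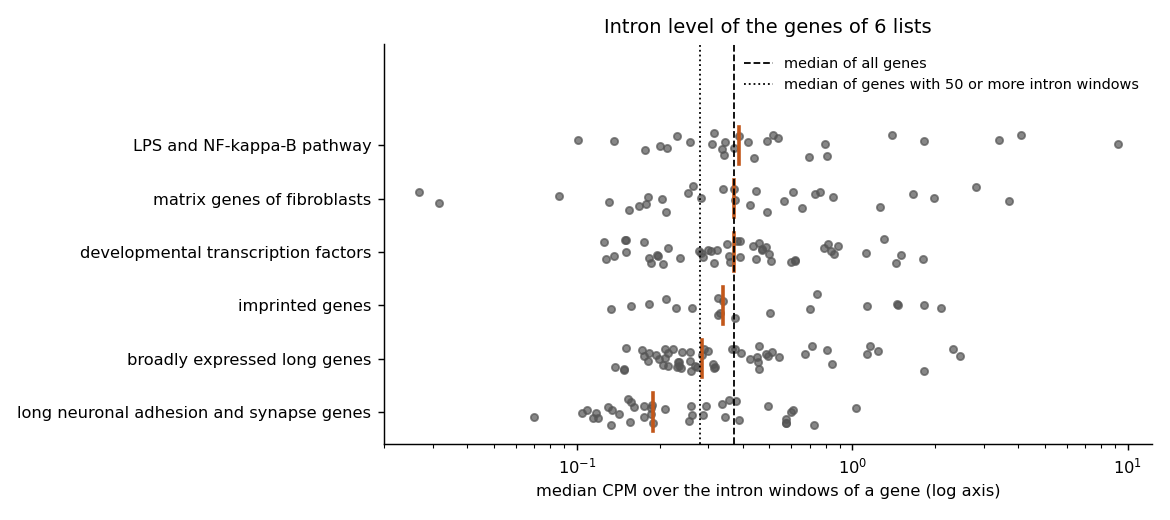
Each point is 1 gene of a list, placed by the median CPM over its intron windows on a log axis (vertical jitter only separates points), orange bars are list medians, and the lines give the medians of all genes (dashed, 0.371 CPM) and of genes with at least 50 intron windows (dotted, 0.280 CPM). The neuronal list has the lowest median, 0.189 CPM, and every list spans more than a 10-fold range.

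Breed made no detectable difference to the intron level as a whole. The mean over intron windows was 0.649, 0.855, 0.769 and 0.839 CPM in the 4 Holstein libraries and 0.787, 0.770, 0.570 and 0.779 CPM in the 4 Angus libraries. The ranges overlapped, with Angus 3 lowest. The breed means were 0.778 ± 0.094 and 0.726 ± 0.105 CPM (SD, n = 4; Holstein minus Angus 0.0514; exact permutation test, two-sided, p = 0.514; adjusted p = 0.821 over 5 comparisons). The sign of this difference was not stable, being -0.000738 without Angus 3 and -0.0213 with effective library sizes (TMM). The ratios of intron to coding, near to deep, beside to far and long to short differed between breeds by 0.03, 0.03, -0.01 and -0.12 on the log2 scale, with adjusted p from 0.821 to 0.943 by exact permutation tests. With 4 animals against 4 the smallest p this test can give is 0.0286.

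Window by window, few introns passed the thresholds for a breed difference. Of the intron windows, 26059 (13.1%) had at least 1 CPM in at least 4 libraries and entered the fit with all other windows. Of these, 7 were called higher in Holstein (0.0269%) and 6 higher in Angus (0.0230%), at an FDR under 0.1 and at least a 2-fold change (edgeR likelihood-ratio test, adjusted over all 115360 windows tested). The background over all tested windows was 0.0390% higher in Holstein and 0.192% higher in Angus, and over the 110561 tested windows of chromosomes 1 to 29 it was 0.0326% and 0.0597%. The shares among introns were not tested against these. Against chromosomes 1 to 29, their order in the Holstein direction turned without Holstein 1, Holstein 3, Angus 2 or Angus 3, and without both Holstein 1 and Angus 3. An unadjusted p under 0.05 was found in 4.61% of the introns tested. Nearly all tested introns, 99.9%, were estimated within 2-fold between the breeds. The quasi-likelihood test of edgeR called 7 intron windows and DESeq2 6. Left without Holstein 1 and Angus 3, an alternative added after the values were seen, the likelihood-ratio test called 34, of which 21 were higher in Holstein.

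In 4 of the 13 called windows the breeds did not overlap. This adds no support to the calls, which used the same libraries, and the share without overlap over all tested windows was not computed. ULBP1 encodes a ligand that marks stressed cells for natural killer cells. Its window at chr9:88292251-88295250, 2 windows from the gene start, had 24, 35, 15 and 60 reads in the 4 Holstein libraries and 105, 87, 167 and 75 in the 4 Angus libraries. Every Angus library was above every Holstein library, at 4.08 ± 1.10 against 1.25 ± 0.49 CPM (log2 fold change, Holstein over Angus, -1.95 ± 0.28 (SE); edgeR adjusted p = 7.47e-08). Both neighbours of this window, also introns, had mean levels of 1.47 and 1.66 CPM and Holstein to Angus ratios of 0.813 and 0.730. ULBP1 belongs to a multigene family, and how reads shared between its members were counted is not given in the sources used here.

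The other windows without overlap were higher in Holstein. In C26H10orf26, an open reading frame on chromosome 26, the window at chr26:23658031-23661030 had 21, 44, 43 and 59 reads in the 4 Holstein libraries and 16, 20, 15 and 10 in the 4 Angus libraries, or 1.56 ± 0.36 against 0.573 ± 0.085 CPM (log2 fold change 1.27 ± 0.23; edgeR adjusted p = 9.17e-05). In BCAR1, which encodes an adaptor protein of cell adhesion sites, the window at chr18:2636198-2639197 lay before the first coding window and had 2.42 ± 0.62 against 1.06 ± 0.42 CPM (log2 fold change 1.08 ± 0.21; edgeR adjusted p = 0.000412). Its reads were 39, 54, 54 and 118 in the 4 Holstein libraries and 16, 37, 27 and 28 in the 4 Angus libraries. In SLC2A1, the glucose transporter gene GLUT1, the window at chr3:103918610-103921609 had 25, 33, 39 and 50 reads in the 4 Holstein libraries and 19, 19, 17 and 10 in the 4 Angus libraries (1.39 ± 0.09 against 0.607 ± 0.065 CPM). Its log2 fold change of 1.01 ± 0.24 sat at the 2-fold threshold (edgeR adjusted p = 0.0132), and it was called under 8 of 17 alternatives. The ULBP1 and C26H10orf26 windows were called under all 17. Neither they nor the BCAR1 and SLC2A1 windows had 1 CPM or more in all 8 libraries, so the alternative with that filter did not test them. The study also lists the ULBP1 and C26H10orf26 windows, with the same directions, but not those of BCAR1 and SLC2A1. The C26H10orf26 and SLC2A1 windows passed the filter of 1 CPM in 4 libraries through Holstein alone. Their Angus libraries had 0.504 to 0.695 and 0.535 to 0.663 CPM. Entry into the fit thus depended on the breed in which they were higher, so their lack of overlap is no separate support.

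**Figure D5:**
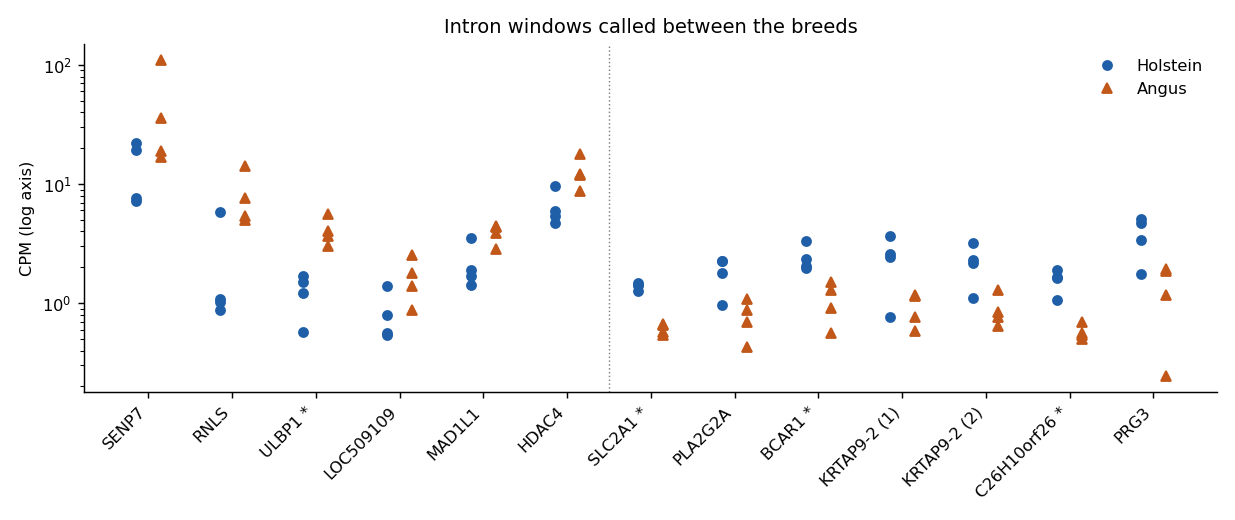
CPM of the 13 called intron windows in each library on a log axis (blue circles Holstein, orange triangles Angus), with windows higher in Angus left of the dotted line and windows higher in Holstein right of it, and a star where the breeds do not overlap. The star marks ULBP1, SLC2A1, BCAR1 and C26H10orf26, and in the other 9 windows at least 1 library lies within the range of the other breed.

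The other 9 called windows overlapped between breeds. Among them, named after their values were seen, were a pair of windows of KRTAP9-2, a hair keratin-associated gene of a family with close copies, on chromosome 19. Both lay after the last coding window of the gene, as did the called windows of PLA2G2A and PRG3. Whether such windows hold intron sequence was not tested. The window at chr19:42109475-42112474 had 1.11, 3.20, 2.16 and 2.31 CPM in the 4 Holstein libraries and 0.838, 0.765, 0.638 and 1.28 CPM in the 4 Angus libraries. Holstein 1 was the library within the Angus range. Its log2 fold change was 1.20 ± 0.23 (edgeR adjusted p = 0.000216), and this window too was called under all 17 alternatives that tested it. The study lists this window as well, also higher in Holstein. The other window, at chr19:42103475-42106474, was called under 8 of 17, with edgeR or DESeq2 adjusted p values up to 1.00. A window of SENP7 on chromosome 1, with 380, 514, 190 and 274 reads in Holstein and 542, 1033, 3295 and 318 in Angus cultures, rested on Angus 3: its log2 fold change moved from -2.04 to -0.68 without that library. None of the 1644 tested intron windows of the 6 gene lists was called. At the shares called over all tested introns, under 1 call would fall among so many windows, so nothing about the lists follows from it.

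NTRK2 and ASIP, a neurotrophin receptor gene and the agouti signalling gene, are genes where the study places windows that differ between the breeds. Neither of those windows is among the intron windows here. That of NTRK2 lies in the promoter region and is the gene's first window, which the rule drops. That of ASIP holds an exon and lies beyond the last intron window kept. The 45 intron windows of NTRK2 had library medians of 0.152, 0.433, 0.227 and 0.281 CPM in the 4 Holstein libraries and 0.314, 0.243, 0.134 and 0.161 CPM in the 4 Angus libraries, which overlapped. A single one passed the filter, with a log2 fold change of -0.03 (edgeR adjusted p = 1.00). The 6 intron windows of ASIP had library medians of 0.202 to 0.411 CPM and none passed the filter, so a difference there was not testable at this depth. In RNF122, SLC9A10 and TNFAIP8L3, where depth was not limiting, 162, 16 and 21 windows were tested and none was called. The median log2 fold changes were -0.32, 0.16 and -0.03.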

How the data were processed

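The authors removed low-quality reads after base calling (CASAVA 1.7, per the labels), mapped the others with NextGENe 2.3.4 (per the file headers) against UMD v3.1, and deposited raw read counts in consecutive 3 kb windows with each window's highest and mean coverage, a signal not scaled for depth and used here only for stacked reads. The handling of duplicate and multiply mapped reads is not given in the sources used here, nor is an input library used. CPM used all windows of a library as its size; a count of 3 reads corresponded to 0.0844 to 0.161 CPM. Genes were averaged over their windows, then over genes. Contrasts within libraries and breed comparisons were tested by exact sign-flip and permutation tests in Python 3 (numpy, pandas, scipy). Breed differences were tested in edgeR 4.0.16 and R 4.3.3 with the likelihood-ratio test, filter and thresholds that the study's methods name. TMM normalization was used, which those methods do not name. Alternatives were edgeR's quasi-likelihood test and DESeq2 1.42.0. Over the whole table the likelihood-ratio fit called 267 windows, more than the study lists at the same thresholds. On simulated counts with a dispersion of 0.1, the likelihood-ratio test recovered 5, 35, 49 and 50 of 50 windows changed 2, 3, 4 and 8-fold, with 13 false calls; the data's common dispersion was 0.0360. The 29 windows of any kind that run past a chromosome end were dropped. Named genes were the 5 highest and 5 lowest by intron median with at least 20 intron windows and an official symbol, the 5 with the most intron windows, the 5 highest windows, called windows whose breeds did not overlap (up to 5 a direction), NTRK2 and ASIP, and from each list the 2 longest, and the 2 highest and 2 lowest genes with at least 5 intron windows. A gene that this rule names is not reported here. The members and lists were chosen with earlier results of these data known. The study's RNA-Seq was not analysed here.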

Additional observations from a re-analysis of the deposited data

Results flagged for a closer look

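In 84 groups of 4 libraries examined, 6 had a library far from the other 3 by Dixon's criterion, where chance gives about 4.2. Angus 3 accounted for 3 of them. Its mean intron level was 0.570 CPM, against 0.770 to 0.787 CPM in the other Angus libraries, its log2 ratio of intron to intergenic windows was -0.84, against -0.43 to -0.41, and its log2 ratio of long to short genes was 0.48, against 0.00414 to 0.05. The cause was not tested. Angus 3 also had the largest share of its reads in the top 1% of windows (72.4%) and on unplaced sequence (26.1%).

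Holstein 2 had the highest log2 ratio of intron to coding windows in its breed, at -0.45, against -0.54 to -0.52 in the other Holstein libraries. In RNLS, which encodes renalase, Holstein 1 had 5.82 CPM in the window starting at 9968531 on chromosome 26, against 0.870 to 1.08 CPM in the other Holstein libraries, in a window called higher in Angus. In the high window of ASB4 on chromosome 4, Angus 4 had 638 CPM, against 415 to 445 CPM in the other Angus libraries.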

How the results depend on the processing

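Introns stayed below coding windows, and windows near the start below deep ones, under all 15 alternatives run for each. The other contrasts of means turned. Intron against intergenic became 0.24 with medians and 0.10 without the highest 0.1% of windows. Beside against far became 0.0272 with medians and 0.00233 without SLC9A10, RNF122 and TNFAIP8L3. Long against short became -0.42, -0.23 and -0.40 with medians, without the highest 0.1% and without those 3 genes. The breed difference in mean level became -0.0213 with TMM sizes and ran from -0.000738 (without Angus 3) to 0.0943 (without Holstein 1) when 1 library was left out. The breed difference in near against deep became -0.0546 with medians and ran from -0.0175 to 0.0668 without 1 library, and that in beside against far from -0.0275 to 0.0297. None of these breed differences passed the threshold.

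Of the 13 called windows (7 higher in Holstein, 6 in Angus), the quasi-likelihood test called 7 (4 and 3), DESeq2 6 (4 and 2), total counts 23 (16 and 7), the filter in all 8 samples 2 (0 and 2), chromosomes 1 to 29 alone 20 (8 and 12), no filter 79 (31 and 48) and the fit without Holstein 1 and Angus 3 34 (21 and 13). Leaving out 1 library gave 9 (without Holstein 4) to 29 (without Angus 2), with 6 to 19 higher in Holstein and 3 to 12 in Angus. The replicate block gave 17 (10 and 7), and the breed difference in mean level with the replicate block was 0.0514 (adjusted p = 0.781, exact). The numbers are not stated to pair animals, and the deviations of same-numbered libraries correlated at -0.16 to 0.14, so the block was not used. With medians of 4 to 13 reads in a window, single low windows cannot be ordered.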

Other observations

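The 473 intron windows of 10 CPM or more, of which 196 lay in SLC9A10, RNF122 and TNFAIP8L3, formed 160 runs in 149 genes, and 113 of the runs were single windows. Other long runs, named here after their values were seen, lay in genes with otherwise low introns. ADAMTS3, a protease gene of collagen maturation, had a run of 7 windows (21 kb) from 89200982 to 89221981 on chromosome 6 at 150 ± 37 CPM (SD, n = 8), between windows of 0.152 and 0.397 CPM. PLCB1, a phospholipase C gene, had 8 windows (24 kb) from 864497 to 888496 on chromosome 13 at 125 ± 33 CPM, between windows of 0.114 and 0.202 CPM. FRMD5, of the FERM domain family, had 11 windows (33 kb) from 56300663 to 56333662 on chromosome 21 at 74.0 ± 18.7 CPM, between windows of 0.171 and 0.121 CPM. The change from high to low thus fell between neighbouring windows in all 3 genes. Library by library these 3 runs did not all move together. Angus 3 had the highest level of the PLCB1 run (169 CPM) and the lowest of the ADAMTS3 and FRMD5 runs (85.8 and 36.2 CPM). The RNF122 block was likewise highest in Angus 3 (167 CPM). The SLC9A10 and TNFAIP8L3 blocks were lowest in that library (112 and 40.4 CPM).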
